A study of Mus musculus with 4 samples.

Results

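Phf6 and 9 genes that encode subunits of the NuRD complex (Chd3, Chd4, Hdac1, Hdac2, Mta1, Mta2, Mbd3, Rbbp4 and Gatad2a) were examined in mouse leukemia chromatin for peaks of PHF6 itself and of 2 modifications of lysine 27 of histone H3. They were taken by name, and all 10 could be placed in the mm9 mouse genome build, among 21119 placed protein-coding genes. For each gene, peaks overlapping the gene body or the 10 kb on either side were collected. The cells were pre-B acute lymphoblastic leukemia cells of strain C57BL/6J, transformed by overexpression of the BCR-ABL1 fusion kinase and p19 null. All 3 chromatin immunoprecipitation libraries analysed here, made with antibodies to PHF6, H3K27ac and H3K27me3, came from such cells, so BCR-ABL1 and the p19 loss were common to all of them. Each antibody had 1 library, no library came from cells lacking PHF6, and an input DNA library of the series was not analysed here. The values below therefore have no replicate error and no test, and the number of reads behind them is unknown.

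PHF6 is the product of an X-linked gene and carries zinc fingers of an extended PHD type. It is mutated in human T-cell acute lymphoblastic leukemia and in an inherited syndrome of intellectual disability, and the human protein has been reported to bind subunits of NuRD. NuRD, the nucleosome remodelling and deacetylase complex, joins an ATP-driven remodelling enzyme of the CHD family to a histone deacetylase pair, and MTA, MBD, RBBP and GATAD2 proteins hold these parts together and to chromatin. H3K27ac marks active promoters and enhancers, whereas H3K27me3 is laid down by Polycomb repressive complex 2 at silent genes. The results below thus concern where PHF6 and both marks lay on the genes that make PHF6 and its reported partners, not the proteins or their complexes.

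Every one of the 10 genes had a PHF6 peak and an H3K27ac peak within 1 kb of its transcription start, and none had an H3K27me3 peak there. Among 16861 placed genes with an annotated start, 64.8% had a PHF6 peak within this distance, 59.3% an H3K27ac peak and 3.33% an H3K27me3 peak. Both PHF6 and H3K27ac were found at 53.5% of all starts. Of the genes with H3K27ac at the start, 90.2% also had PHF6, so a PHF6 peak at the acetylated starts of these 10 genes is what most acetylated starts showed. Gene positions were set by matching tall H3K27ac summits to the starts of other genes, never to the gene's own start. Summits near the gene's own start were not left out and could match the start of a close neighbour. The presence of H3K27ac near a start is read with that in mind.

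Most of the 10 genes had a PHF6 peak taller than the middle of all starts. Height here is the whole-number pileup that the authors deposited for each summit, and it is compared only within 1 antibody. Their median PHF6 height at the start was 46.5, where all 10926 starts with a PHF6 peak had a median of 33 and quartiles of 26 and 39. Of the 10 genes, 7 lay above that upper quartile, a position held by 16.2% of all genes and by 27.2% of those with H3K27ac at the start. Their median H3K27ac height was 333, where 9967 starts had a median of 251 and quartiles of 87 and 317. For H3K27ac, 8 of the 10 lay above the upper quartile, against 14.7% of all genes, or 2476 of the 9967 starts with H3K27ac. Phf6 at 22 lay below the lower PHF6 quartile and Hdac1 at 26 lay on it, both with H3K27ac heights near the median of all starts, while Hdac2 was above the upper quartile for H3K27ac but not for PHF6.

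**Figure D1:**
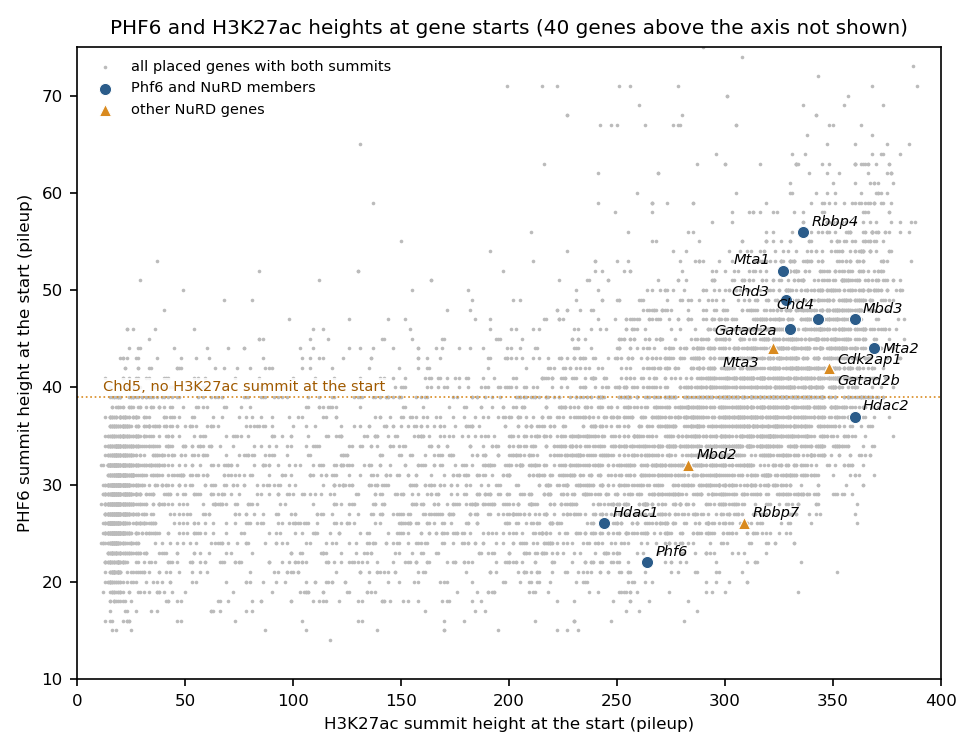
PHF6 summit height (vertical axis) against H3K27ac summit height (horizontal axis) at the start of each gene with both, in pileup units and 1 library per antibody, with the 10 genes as circles, other NuRD genes as triangles and all placed genes in grey (40 taller ones are outside the axis). Phf6 at 22 and Hdac1 at 26 lie low, Hdac2 stands at 37, and the other 7 circles lie between 44 and 56; the dotted line is the PHF6 height of Chd5, which had no H3K27ac summit at its start.

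Phf6 itself carried 1 small PHF6 peak, at its start, together with an H3K27ac peak. The peak spanned chrX:50264880-50266072 (mm9, 1193 bp), with its summit at 50265695 and a height of 22, which is the median of all 77749 PHF6 summits but only the 13.1st percentile among starts. The H3K27ac peak over it, chrX:50264741-50267085, had a height of 264, and the summits of both lay 7 bp apart. No other peak of any antibody was found in the 64.7 kb of the Phf6 window. Away from the start, neither the gene body nor its flanks held a called PHF6 or H3K27me3 site. The X chromosome as a whole was low in this library: 182 of 774 X starts (23.5%) had a PHF6 peak, with a median height of 20, against 66.8% of autosomal starts with a median of 33. H3K27ac was found at 32.8% of X starts with a median height of 170, and at 60.6% of autosomal starts with a median of 253. Among X starts alone, Phf6 stood at the 72.5th percentile for PHF6 height and the 83.5th for H3K27ac height. Its rank was thus low over all chromosomes and above the middle among X starts, and the part of the chromosome in this was not tested.

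The genes most like Phf6 were looked for over 3 values, the ranks of the tallest PHF6, H3K27ac and H3K27me3 summit at the start within their lists. Mcm5, Ppa1 and Bhlhb9 were nearest, at distances of 0.278, 0.979 and 1.01 percentile points. Each had a PHF6 height of 22 and no H3K27me3 peak at the start, with H3K27ac heights of 262, 272 and 255.

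The remodelling ATPase genes Chd3 and Chd4 shared a pattern of a tall start peak and many small PHF6 peaks along the gene. Chd3 had a PHF6 height of 49 (93.9th percentile of starts) in a peak at chr11:69180720-69183198, and an H3K27ac height of 328. Chd4 had a PHF6 height of 47 (91.7th percentile) at chr6:125045760-125048019, and an H3K27ac height of 343. Their windows held 11 and 12 PHF6 peaks, where the median window of all genes held 2 and the upper quartile was 5. Of these peaks 7 lay in the body of each gene, with heights of 16 to 27 in Chd3 and 19 to 32 in Chd4, all below the start peak. In the Chd4 window, 1 of the flanking PHF6 peaks, of height 35, lay at the start of Nop2, a gene of ribosomal RNA methylation.

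The deacetylase genes Hdac1 and Hdac2, which encode closely related catalytic subunits, both had low or middling PHF6 peaks. Hdac1 had a PHF6 height of 26 (26.3rd percentile) at chr4:129218721-129220497 and an H3K27ac height of 244, the lowest H3K27ac height of the 10 genes. Hdac2 had a PHF6 height of 37 (68.3rd percentile) at chr10:36693614-36695302 and an H3K27ac height of 360. These were the only peaks in the Hdac2 window. The Hdac1 window held the tallest PHF6 summit found in any of the 10 windows, of height 63, but it lay 28359 bp past the Hdac1 start, at the start of the neighbouring gene Marcksl1, together with an H3K27ac summit of height 287. An H3K27me3 peak of height 17 overlapped the edge of both. The largest PHF6 peak near Hdac1 thus lay at another gene's start.

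Rbbp4, which encodes a WD-repeat histone-binding subunit also used by other chromatin complexes, had the tallest start peak of the 10. Its PHF6 height was 56 (98.03rd percentile) in a peak of 1520 bp at chr4:129011529-129013048, and its H3K27ac height was 336. It was the only PHF6 peak in the window. The start of Zbtb8os lies 598 bp away on the opposite strand, inside the same peaks, so this height cannot be assigned to Rbbp4 alone. Hdac1 and Rbbp4 lie close to each other on chromosome 4, their start summits 208 kb apart, with PHF6 heights near opposite ends of the range. The 250 bases upstream of the Rbbp4 start are shown because they precede the tallest PHF6 start summit of the 10 genes. They are from RefSeq, GRCm38.p6, chr4:129335371-129335620, minus strand. GC boxes (GGGCGG on either strand) are in capitals here and in the sequences that follow.

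Rbbp4: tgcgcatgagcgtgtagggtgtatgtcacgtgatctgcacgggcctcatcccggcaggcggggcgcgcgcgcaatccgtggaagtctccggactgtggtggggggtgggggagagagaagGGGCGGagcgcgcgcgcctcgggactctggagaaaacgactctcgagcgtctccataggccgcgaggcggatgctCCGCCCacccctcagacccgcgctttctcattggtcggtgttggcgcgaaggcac

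The MTA genes, which encode the scaffold that holds the deacetylases, differed in how far PHF6 peaks spread. Mta1 had a PHF6 height of 52 (96.3rd percentile) and an H3K27ac height of 327. Its start peak, chr12:114333406-114339791, was 6386 bp wide, where all start peaks had a median width of 1532.5 bp. The Mta1 window held 15 PHF6 peaks, the most of the 10, with 10 of them in the gene body at heights of 19 to 28. One flanking PHF6 peak, 10637 bp wide and of height 40, overlapped the start of Crip2 and an H3K27me3 peak of height 26. Mta2 had a PHF6 height of 44 (86.9th percentile) at chr19:9014296-9017543 and the highest H3K27ac height of the 10, 369. Both peaks also lay at an annotated start of Gm10353, so these heights cannot be assigned to Mta2 alone. Mta2 had a single further PHF6 peak, of height 17, in its body. Both promoters are shown because they precede the widest start peak and the tallest H3K27ac summit of the 10 genes: Mta1 from chr12:113098028-113098277, plus strand, and Mta2 from chr19:8941670-8941919, plus strand (RefSeq, GRCm38.p6), with the ETS core CCGGAA, on either strand, also in capitals in Mta2.

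Mta1: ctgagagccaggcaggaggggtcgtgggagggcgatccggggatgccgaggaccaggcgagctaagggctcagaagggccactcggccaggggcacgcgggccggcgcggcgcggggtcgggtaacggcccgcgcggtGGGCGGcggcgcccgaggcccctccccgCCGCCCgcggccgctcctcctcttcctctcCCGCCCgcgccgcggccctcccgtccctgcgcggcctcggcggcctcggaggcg

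Mta2: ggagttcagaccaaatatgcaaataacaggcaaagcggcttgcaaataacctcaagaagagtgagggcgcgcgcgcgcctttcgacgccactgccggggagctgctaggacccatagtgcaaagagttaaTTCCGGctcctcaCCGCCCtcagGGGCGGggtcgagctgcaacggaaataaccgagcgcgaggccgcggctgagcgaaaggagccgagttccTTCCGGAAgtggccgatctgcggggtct

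Mbd3, which encodes a methyl-CpG-binding-domain protein of the complex, combined a tall start peak with the densest window. Its PHF6 height was 47 (91.7th percentile) at chr10:79861069-79863253 and its H3K27ac height 360. The window held 8 PHF6 peaks in 26.993 kb, or 0.296 per kb, at the 96.4th percentile of all windows. Of these 8 peaks, 7 overlapped H3K27ac, and 1 of the flanking ones, of height 27, lay at the start of Uqcr11. The window was short and shared with close neighbours, and 4 of the 8 peaks lay outside the gene.

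Gatad2a, whose product links the MBD subunit to the CHD enzyme, had PHF6 at both of its annotated starts. The downstream start had a PHF6 height of 46 (90.3rd percentile) at chr8:72497008-72499051 and an H3K27ac height of 330. The upstream start had a PHF6 height of 33 at chr8:72519284-72521208 and an H3K27ac height of 321. The summits of these PHF6 peaks were 22.1 kb apart, and H3K27ac was nearly as tall at one start as at the other while PHF6 was taller at the downstream one. A further 5 PHF6 peaks, of heights 17 to 26, lay together near the end of the gene. The gene body also held 2 H3K27me3 peaks of heights 13 and 14. The promoter of the downstream start is shown because the taller peak lies there (RefSeq, GRCm38.p6, chr8:69974384-69974633, minus strand, GC boxes and the ETS core in capitals).

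Gatad2a: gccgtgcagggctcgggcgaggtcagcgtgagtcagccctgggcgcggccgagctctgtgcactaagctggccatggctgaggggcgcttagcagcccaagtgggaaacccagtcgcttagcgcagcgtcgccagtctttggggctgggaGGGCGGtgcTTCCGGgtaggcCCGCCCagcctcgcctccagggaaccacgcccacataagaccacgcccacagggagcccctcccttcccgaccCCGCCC

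**Figure D2:**
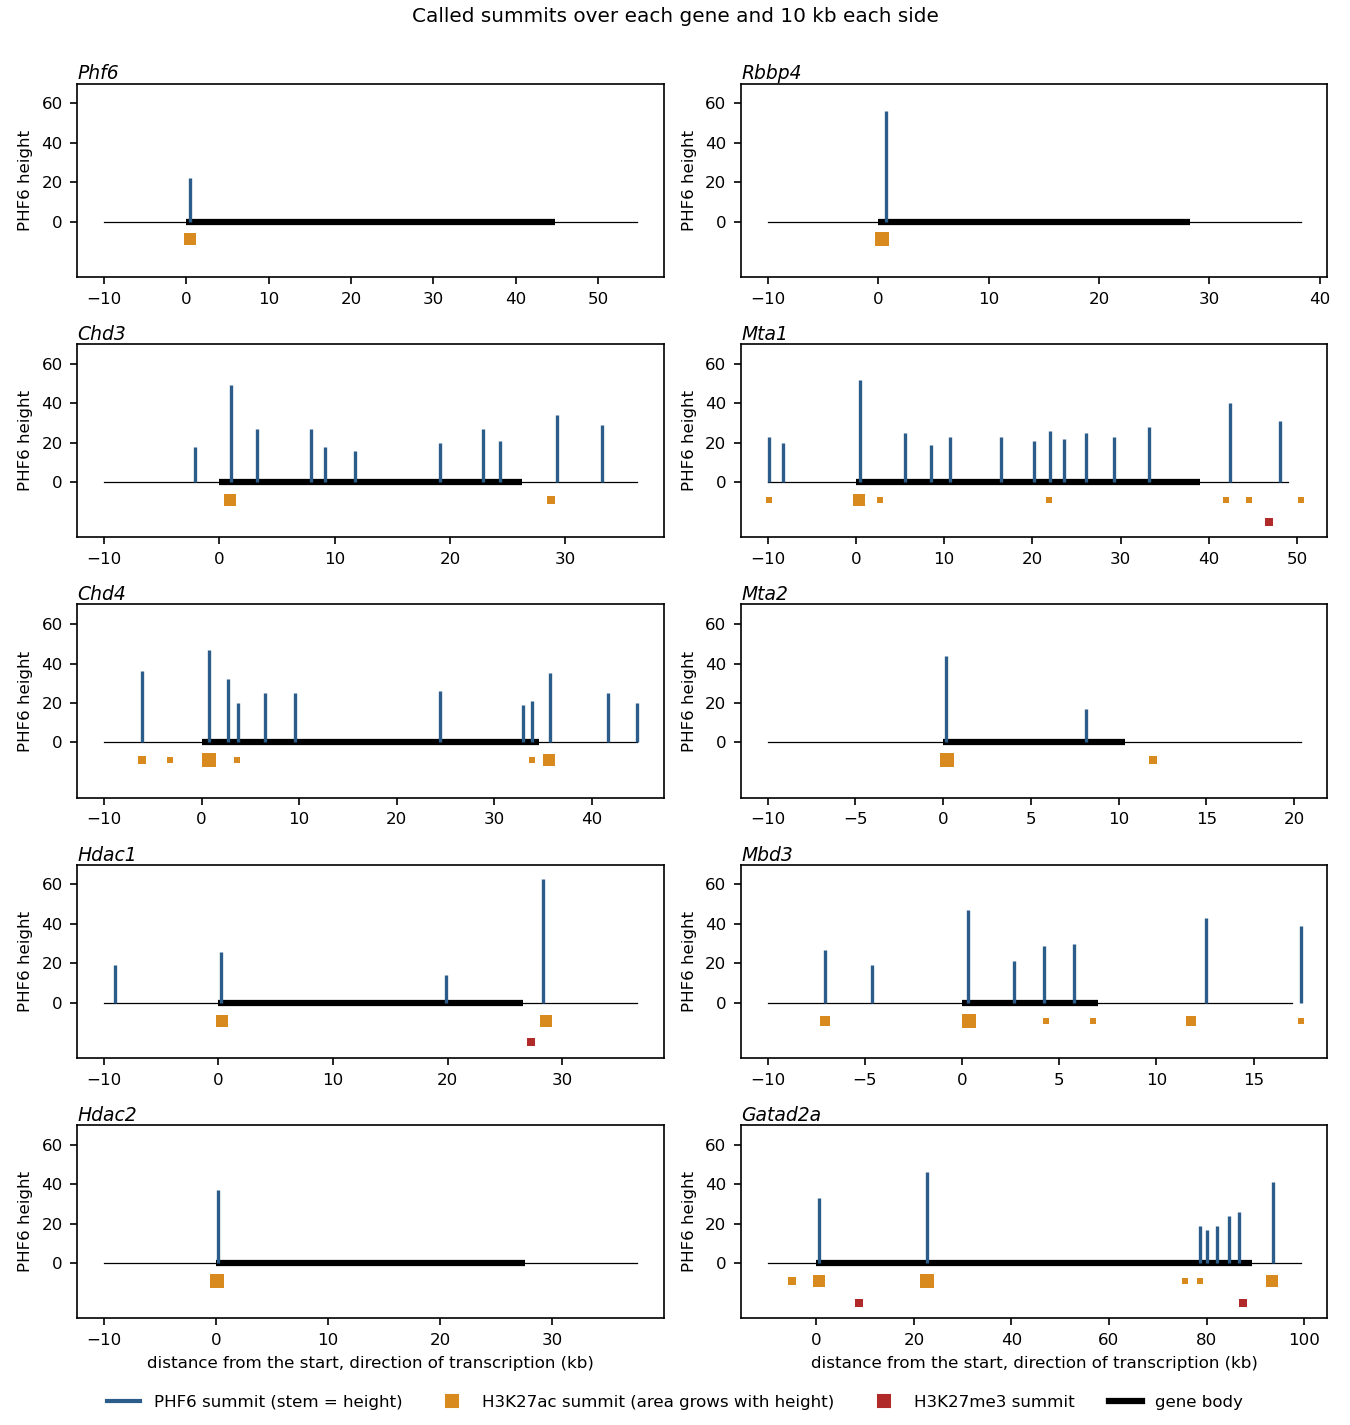
Called summits over each of the 10 genes and 10 kb on either side, with distance from the start in kb in the direction of transcription; blue stems give the PHF6 summit height, orange squares H3K27ac summits (larger squares are taller) and red squares H3K27me3 summits. Phf6, Hdac2 and Rbbp4 have 1 PHF6 stem each, whereas Chd3, Chd4 and Mta1 have 11, 12 and 15.

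Over the 10 windows there were 63 PHF6 peaks, and 31 of them overlapped H3K27ac. All 11 PHF6 peaks at starts overlapped H3K27ac, and their heights ran from 22 to 56. Of the 34 PHF6 peaks in gene bodies 9 overlapped H3K27ac, and their heights ran from 14 to 32 with a median of 23. Of the 18 flanking peaks, 5 of them at starts of other genes, 11 overlapped H3K27ac, and their median height was 30. The share of all PHF6 peaks that overlapped H3K27ac is not given here, so these counts describe the 10 windows only. The median height of all PHF6 summits was 22. A PHF6 peak was found in the window of 80.9% of all placed genes and an H3K27ac peak in 71.1%, so all 10 windows having both is close to what most windows showed. H3K27me3 was found in 3 of the 10 windows, those of Hdac1, Mta1 and Gatad2a, against 20.2% of all windows.

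The genes differed widely in how many PHF6 peaks their windows held. Mta1, Chd4 and Chd3 had the most PHF6 peaks and stood at the 97.1st, 95.3rd and 94.2nd percentile of all windows by count. Mta2 had 2 peaks and Rbbp4, Hdac2 and Phf6 had 1 each, at 0.0207, 0.0210 and 0.0154 peaks per kb for the last 3, below the median window of 0.0446. The genes with 8 or more PHF6 peaks all had start heights of 46 to 52, while Rbbp4 had the tallest start peak of the set and no other PHF6 peak in its window.

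The PHF6 and H3K27ac summits nearly coincided at most of the 10 starts. Their distance was 7 bp at Phf6, 17 bp at Chd4, 26 bp at Hdac2 and at Gatad2a, 56 bp at Mbd3, 59 bp at Mta2, 86 bp at Mta1 and 92 bp at Chd3. At Hdac1 it was 116 bp and at Rbbp4 287 bp. A distance of at most 100 bp was thus found at 8 of the 10 genes, against 54.8% of the 8986 genes with both peaks at the start, whose median distance was 85 bp. Placement enters this measure only through the choice of the peaks. The PHF6 summit lay downstream of the H3K27ac summit at 6 genes and upstream at 4. The share of all starts with either order is not given here, so this split describes the 10 genes only. The PHF6 summit lay downstream of the start, by 162 to 991 bp, at all 10 genes, as it did at 70.3% of all starts. At Phf6, Chd3 and Hdac1 the start was taken as the end of the gene body, and distances from the start carry the error of placement, which moved by at most 315 bp under other settings, except for a move of 122 kb of Hdac1 and Rbbp4 when PHF6 summits were used.

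**Figure D3:**
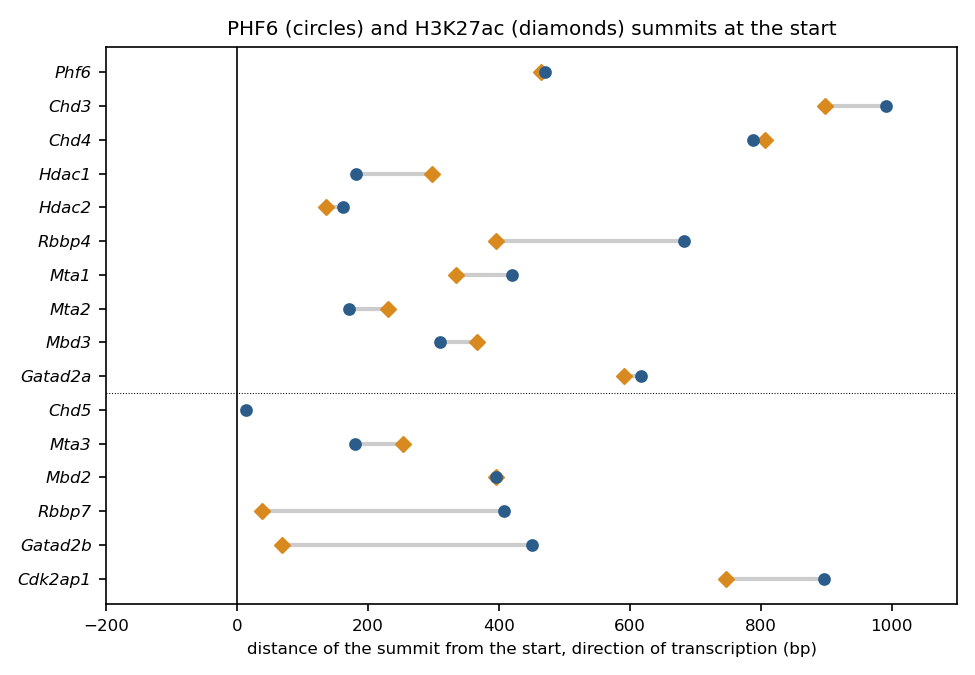
Distance of the tallest PHF6 summit (circles) and of the H3K27ac summit (diamonds) from the start in bp, positive in the direction of transcription, for the 10 genes above the dotted line and other NuRD genes below it. At the 10 genes all circles lie to the right of the start and most lie close to their diamond; Rbbp4, Rbbp7 and Gatad2b have the widest gaps, of 287, 370 and 381 bp.

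Across the 10 genes the heights for both antibodies did not rank together (Spearman rho of 0.143 over 10 genes), while over the 8986 starts with both they did to a degree (rho of 0.614). Both are descriptions of 1 library each, and the genes are not replicates. Rbbp4, the tallest for PHF6, came after Mta2, Hdac2, Mbd3 and Chd4 for H3K27ac, and Mta2, the tallest for H3K27ac, came after 6 others for PHF6.

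The 6 remaining NuRD subunit genes included the 1 start without H3K27ac. PHF6 was found at all 6 starts, H3K27ac at 5 and H3K27me3 at none. Mta3, another MTA gene, had a PHF6 height of 44 and an H3K27ac height of 322. Gatad2b and Cdk2ap1, the latter encoding a small subunit, both had heights of 42 and 348. Mbd2, the methyl-CpG-binding relative of Mbd3, had 32 and 283. Rbbp7, the X-linked relative of Rbbp4, had 26 and 309, and its PHF6 height was at the 86.3rd percentile among X starts. In each of the pairs Rbbp4 and Rbbp7, Mbd3 and Mbd2, Hdac2 and Hdac1 the first gene had the taller PHF6 peak, whereas Chd3 and Chd4 or Gatad2a and Gatad2b were close. With 1 library no pair could be tested.

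Chd5, a CHD gene known mainly from brain and testis, had a PHF6 peak without acetylation. Its start had a PHF6 height of 39 in a peak of 3615 bp at chr4:151712178-151715792, with neither H3K27ac nor H3K27me3. Among 1940 starts with PHF6 but no H3K27ac this height was at the 99.4th percentile, the median there being 23 with quartiles of 20 and 27. The Chd5 window held 22 PHF6 peaks, 3 of which overlapped H3K27ac, and stood at the 98.8th percentile by count. Of the 16 NuRD and Phf6 starts examined, it was the only one with a PHF6 peak and no H3K27ac peak. Its promoter is shown as the unacetylated counterpart of those above (RefSeq, GRCm38.p6, chr4:152338401-152338650, plus strand, GC boxes in capitals).

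Chd5: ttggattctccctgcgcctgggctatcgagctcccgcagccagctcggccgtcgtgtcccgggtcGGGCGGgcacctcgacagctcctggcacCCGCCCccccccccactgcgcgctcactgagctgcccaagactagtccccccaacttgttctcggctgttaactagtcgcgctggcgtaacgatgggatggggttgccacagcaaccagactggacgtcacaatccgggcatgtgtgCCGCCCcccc

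Over 9 promoters of 7 of the 10 genes, Chd4 and Gatad2a having 2 starts each, upstream sequence was described; no promoter of Phf6, Chd3 or Hdac1 was used here. A GC box (GGGCGG, both strands searched, in the 250 bases before the start) was present in 9 of the 9, against 42.6% of 21263 promoters. The 2 Chd4 promoters overlap and share 1 GC box, so the 9 are not all separate sequences. The share among promoters of like GC content is not given here. The ETS core CCGGAA was present in 2, those of Mta2 and of the downstream Gatad2a start, against 14.998%; on its opposite strand it reads TTCCGG, as in the capitals above. CCAAT was present in 4 against 35.4%, CACGTG in 1 (Rbbp4) against 6.63%, GCGCATG in 1 (Rbbp4) against 3.97% and TATAAA in 1 (Mbd3) against 11.6%. TGTGGT was present in 2 (Hdac2 and Rbbp4) against 12.4%, TGGGAA in 1 (Gatad2a) against 20.9%, and TTCNNNGAA in 0 against 6.58%. These letters are matches and not binding sites. The GC content of the 9 promoters ran from 54.0 to 80.8% with a median of 67.6%, against 55.6% over all promoters. Promoters of genes with PHF6 at the start had a median of 60% and those of placed genes without it 46.0%, so base composition moved with the PHF6 peaks; its part in them was not tested.

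PHF6 was also found at most starts of genes of other chromatin complexes. Among SWI/SNF remodelling genes 18 of 19 placed had PHF6 and 18 had H3K27ac, with a median PHF6 height of 41, from 63 at Arid1a through 41 at Smarca2 to no peak at Actl6b, a neuronal subunit gene. Among genes of the SIN3, CoREST and NCoR deacetylase complexes 16 of 16 had both, with a median of 38.5, from 63 at Ncor1 through 38 at Kdm1a to 26 at Tbl1x. Among genes of UBF and the PAF1 complex, other reported PHF6 partners, 4 of 5 had both, with a median of 37, from 60 at Ubtf to no peak at Cdc73. Among other PHF genes 14 of 14 had PHF6 and 13 H3K27ac, with a median of 38, from 64 at Phf12 through 38 at Phf20 to 27 at Phf14. The median of the 9 NuRD genes was 47, higher than each of these lists. That of the 6 other NuRD genes was 40.5, below the SWI/SNF median of 41. Single genes of the SWI/SNF list, the deacetylase list, the UBF and PAF1 list and the PHF list also reached beyond the tallest NuRD start. The 6 other NuRD genes did not, the tallest being 44 at Mta3. The lists thus overlapped widely, and no test could be made.

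**Figure D4:**
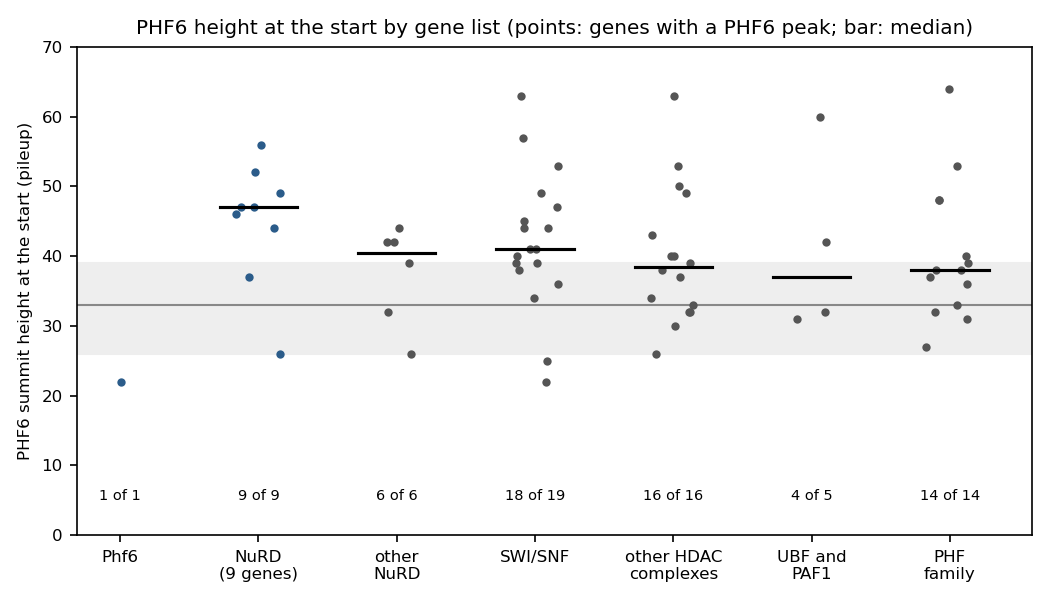
PHF6 summit height at the start (pileup) for genes with a PHF6 peak, by gene list, with the median as a bar and the number with a peak of those placed below; the grey band spans the quartiles of all starts (26 to 39) and the grey line their median of 33. The 9 NuRD genes lie between 26 and 56 and Phf6 at 22, and the other lists cover much the same range.

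The labelled cell type was checked on the acetylation list. H3K27ac was found at the start of 7 of 8 placed B lineage marker genes, among them Cd79a, Pax5, Ebf1 and Vpreb1, and not at Rag1. It was found at 3 of 6 T lineage genes, 1 of 4 myeloid, 1 of 3 erythroid and 0 of 2 stromal genes. Of all starts, 59.3% had it. Heights varied within these calls, from 329 at Vpreb1 to 106 at Blnk and 92 at Cd22 among B lineage genes. Outside that list they were 15 at Bcl11b and 128 at Tcf7 among T lineage genes, 20 at Cebpa and 283 at Klf1. The height at Tcf7 was thus above those at Blnk and Cd22. For Lck, also counted among the T lineage genes, no height is given here. H3K27me3 lay at the start of 1 myeloid gene and of no B lineage, T lineage, erythroid or stromal gene, against 3.33% of all starts.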

How the data were processed

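Peaks and their summits, in mm9, were deposited for each of 3 ChIP libraries, and depth per library is unknown. Bowtie2, SAMtools and MACS 1.4.0 are named per the submitters' processing notes; the list names give a threshold of 1e-06 and mark the PHF6 and H3K27ac lists, not the H3K27me3 list, as made without local background. The score deposited by the authors per peak was used only as a filter, and it stopped near 3100 for most tall H3K27ac peaks. The signal deposited by the authors per summit is a pileup height.

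Gene positions came from RefSeq on GRCm38.p6. Each gene was moved by the local offset at which H3K27ac summits of height 200 or more best matched annotated starts of other genes (within 500 bp, at least 5 starts, at least 1.5 times the next separate offset). Stretches of 2 Mb on each side were widened to 4 and 8 Mb where unclear, and then neighbours within 4 Mb were used; the widening and the neighbours were added after seeing the data, and Phf6 and Hdac2 depend on them. Of 21887 protein-coding genes 21119 were placed. The orientation of Phf6, Chd3, Hdac1, Mta3 and Mbd2, which lack an entry in the promoter table, came from general knowledge. Peaks overlapped at 1 bp or more. With several starts the one with the tallest PHF6 summit was used. The placement procedure was tested on simulated summits for some autosomes only. That test left out the X chromosome, where Phf6 lies, and its accuracy is not given here. Members and gene lists were chosen with earlier results of these data known: all 10 genes and the 6 other NuRD genes are named, other lists by their highest, middle and lowest PHF6 height. Scripts used scipy 1.17.1, pandas 2.3.3, matplotlib 3.10.9 and numpy 2.4.6 under Python 3.11.15.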

Additional observations from a re-analysis of the deposited data

How the results depend on the processing

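No paired analysis was possible because there was only 1 library for each antibody. All 10 genes kept a PHF6 peak at the start with windows of 500 bp or 2 kb, a score of at least 100, the summit inside the window, regions of all 3 lists left out, H3K27ac summits of height 100 or more, or stretches of 1 Mb. The count was 8 when placed by PHF6 summits of height 40 or more. Phf6 was not placed there, and Hdac1 and Rbbp4 moved by 122 kb. Hdac1 then had no PHF6 peak at its start, while Rbbp4 counted through another PHF6 peak, at its moved start. The count was 7 with 4 Mb stretches, where Hdac1, Mta2 and Rbbp4 were not placed. It was 8 with 2 Mb and no widening, where Phf6 and Hdac2 were not placed. The count with H3K27ac at the start, 10, fell under the same 3 settings to 7, 7 and 8; with PHF6 summits Rbbp4 as well as Hdac1 had no H3K27ac peak at its moved start. The best offset of Hdac1 and Rbbp4 matched 16 starts and the next 9. Apart from that move of Hdac1 and Rbbp4, offsets of the 10 genes shifted by at most 315 bp. The share of all starts with PHF6 was 63.5% at 500 bp, 66.7% at 2 kb, 57.6% with the score filter, 60.3% with the summit inside, 62.4% without regions of all 3 lists, 65.9% when placed by PHF6 summits and 72.1% without widening. For H3K27ac the shares were 58.4%, 60.5%, 55.8%, 56.2%, 56.5% and, without widening, 66.3%. H3K27ac peaks in the 10 windows numbered 34, with 19 when flanks were left out and 56 with 20 kb flanks. Without flanks, peaks at the start that overlap the gene are counted with its body, unlike in the counts by place above. H3K27me3 peaks numbered 4, with 2 when flanks were left out, 10 with 20 kb flanks, 2 with the score filter and 2 without regions of all 3 lists. The lists give no read totals, so a missing peak is not shown to be an absent one.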
